A study of Mus musculus with 14 samples.

Results

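The 10 genes S100a8, S100a9, Camp, Ngp, Ltf, Lcn2, Retnlg, Mmp8, Chil3 and Ly6g, all abundant in maturing neutrophils, were followed through 14 RNA-seq libraries of sorted mouse long-term hematopoietic stem cells (LT-HSCs). They were taken by symbol from the 55450 gene identifiers counted, with no use of their values, and all 10 passed the expression filter among 16878 genes tested. Post-transplant libraries held donor-derived LT-HSCs sorted 16 weeks after 1000 Selp high or 1000 Selp low cells from old donors had been given to lethally irradiated recipients aged 10 to 16 weeks. These formed a Selp high-derived group (3 libraries) and a Selp low-derived group (3 libraries), sorted as CD45.2+ cells and not by P-selectin (Selp), an adhesion receptor of activated platelets and endothelium. Pre-transplant libraries held Selp high (4 libraries) and Selp low (4 libraries) LT-HSCs of 4 mice older than 24 months. All libraries came from 5000 cells that were Sca-1+, c-Kit+, CD48- and CD150+, and all mice were female C57BL/6. Cells stained for the lineage antigens B220, CD3, Gr-1, Mac-1 or Ter-119 were gated out, and Gr-1 and Mac-1 are carried by neutrophils. The sources used here do not give how many recipients each post-transplant library came from.

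Neutrophils arise in bone marrow through promyelocyte, myelocyte, metamyelocyte and band stages. Each stage makes its own granule proteins: myeloperoxidase and serine proteases of primary granules come first, then those of specific granules, then those of gelatinase granules. The factor C/EBP epsilon is required in mice for specific granule genes such as Ltf, Camp and Ngp. LT-HSCs are multipotent cells without granules, and the products of the 10 genes are known for their abundance in later neutrophil stages.

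The genes lie on chromosome 3 (S100a8, S100a9, Chil3), chromosome 9 (Camp, Ngp, Ltf, Mmp8), chromosome 2 (Lcn2), chromosome 16 (Retnlg) and chromosome 15 (Ly6g) of GRCm38, and none overlaps another annotated gene. By reads scaled to library size, Ngp, S100a8, S100a9 and Ltf had the highest mean levels of the 10 over the 14 libraries. Their promoters are given, from RefSeq GRCm38.p6, each running from 250 bases before to 50 bases after the annotated start. They are Ngp at chr9:110419558-110419857 and Ltf at chr9:111019042-111019341 on the plus strand, S100a8 at chr3:90668821-90669120 on the plus strand and S100a9 at chr3:90695672-90695971 on the minus strand. Capitals mark TTGCNNAA on either strand, a motif of the C/EBP type, and TATAAA on the strand of the gene.
Ngp: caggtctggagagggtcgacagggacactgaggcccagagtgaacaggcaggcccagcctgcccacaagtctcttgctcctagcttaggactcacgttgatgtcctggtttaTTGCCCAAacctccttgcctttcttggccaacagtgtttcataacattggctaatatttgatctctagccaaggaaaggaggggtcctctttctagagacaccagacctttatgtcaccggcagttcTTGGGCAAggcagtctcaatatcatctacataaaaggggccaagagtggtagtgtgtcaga
Ltf: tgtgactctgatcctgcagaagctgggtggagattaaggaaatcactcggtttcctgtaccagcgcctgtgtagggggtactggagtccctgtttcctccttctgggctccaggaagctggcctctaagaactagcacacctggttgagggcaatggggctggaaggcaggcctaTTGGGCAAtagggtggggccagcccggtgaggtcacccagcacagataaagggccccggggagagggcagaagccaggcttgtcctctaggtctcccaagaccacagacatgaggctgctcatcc
S100a8: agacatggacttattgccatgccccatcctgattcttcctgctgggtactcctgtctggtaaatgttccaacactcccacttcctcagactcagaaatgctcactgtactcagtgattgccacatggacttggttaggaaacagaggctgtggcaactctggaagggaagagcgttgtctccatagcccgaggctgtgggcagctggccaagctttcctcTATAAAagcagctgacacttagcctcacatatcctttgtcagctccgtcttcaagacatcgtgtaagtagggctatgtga
S100a9: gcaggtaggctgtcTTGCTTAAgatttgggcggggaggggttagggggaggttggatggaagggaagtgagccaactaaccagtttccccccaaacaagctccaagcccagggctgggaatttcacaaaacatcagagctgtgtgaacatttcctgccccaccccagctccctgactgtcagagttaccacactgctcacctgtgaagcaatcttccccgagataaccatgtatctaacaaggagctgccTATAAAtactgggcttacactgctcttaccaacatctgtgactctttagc
All 10 genes matched the RefSeq table, with 11 windows since Ly6g had 2. TTGCNNAA, searched on both strands, was found in 7 of the 11 windows (Lcn2, Ltf, Ly6g, Mmp8, Ngp, Retnlg and S100a9), against 10.8% of all 32851 promoter windows. TATAAA, searched on the gene's strand, was in 5 of the 11 windows (S100a8, S100a9, Chil3 and both of Ly6g), against 8.32% of all windows. The window of Camp held neither motif. Both motifs were chosen after the sequences were seen, they do not overlap each other in the 4 promoters shown, and a match describes letters only.

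Together the 10 transcripts took between 0.0285% and 2.003% of the reads assigned to genes, a 70.3-fold range among libraries sorted by the same LT-HSC gate. Their share was 0.0368%, 0.215% and 0.209% in Selp high-derived replicates 1 to 3 and 0.271%, 1.31% and 0.153% in Selp low-derived replicates 1 to 3. It was 0.0285%, 0.628%, 0.507% and 2.003% in Selp high replicates 1 to 4, and 0.203%, 0.380%, 0.462% and 1.48% in Selp low replicates 1 to 4. At the top stood Selp low-derived replicate 2 and both pre-transplant libraries numbered 4, 3 libraries with at least 1.31% against at most 0.628% in the other 11. Selp high replicate 1 and Selp high-derived replicate 1 were lowest, so the high and the low extreme of the pre-transplant values lay in the same group. Counting alone gives exact 95% binomial intervals of 1.997% to 2.008% for Selp high replicate 4 and 0.0278% to 0.0291% for Selp high replicate 1, so counting error is small beside the spread between libraries. Group means were 0.154% ± 0.101 in Selp high-derived (SD, n = 3), 0.577% ± 0.635 in Selp low-derived (SD, n = 3), 0.792% ± 0.848 in Selp high (SD, n = 4) and 0.631% ± 0.574 in Selp low libraries (SD, n = 4). These are bulk libraries, in which fewer cells of a type and less RNA per cell cannot be told apart.

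**Figure D1:**
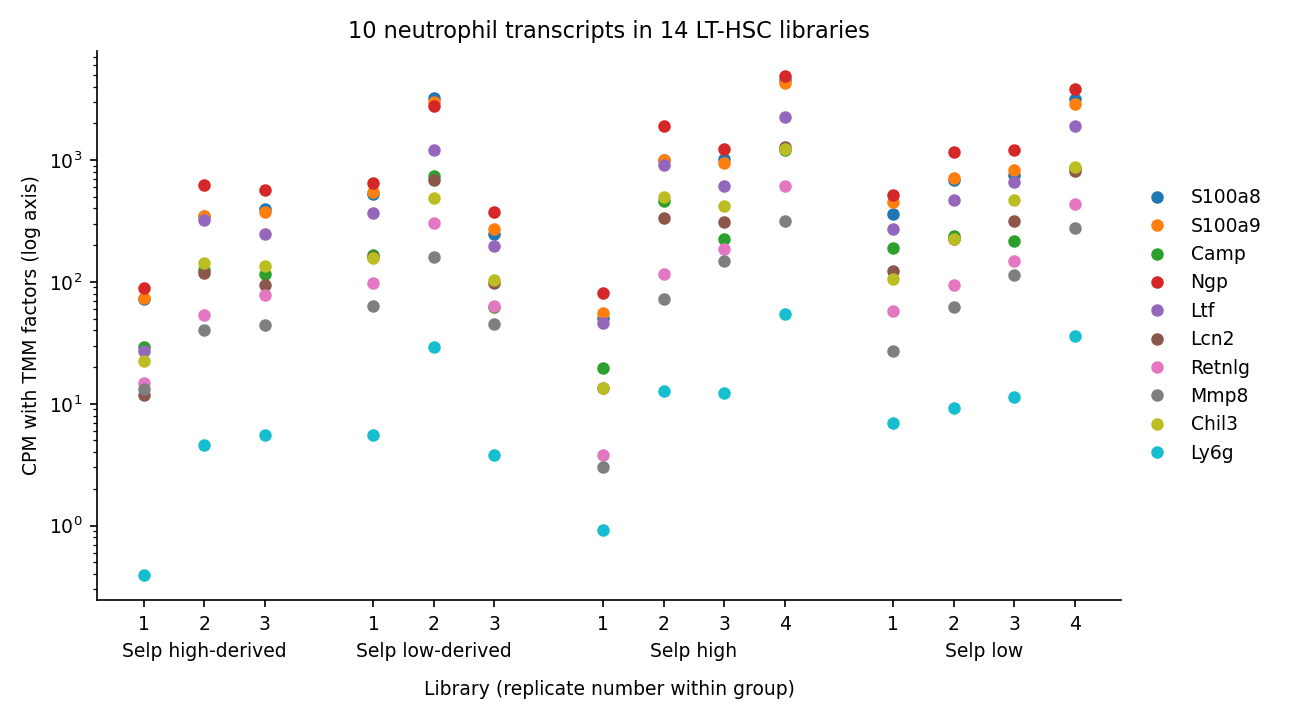
Level of each of the 10 transcripts (points, CPM with TMM factors, log axis) in each library (replicate number on the horizontal axis), by group. All 10 are at their highest in Selp high replicate 4, replicate 2 is highest for all 10 in Selp low-derived cells, and replicate 1 is lowest for all 10 in Selp high-derived, Selp high and Selp low cells.

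S100a8 and S100a9 encode the subunits of calprotectin, the main calcium-binding protein of the neutrophil cytosol. Levels are in CPM, read counts scaled to each library's assigned total, after edgeR's TMM scaling, which takes most genes as unchanged between libraries. S100a8 (ENSMUSG00000056054.9) had 72.4, 347 and 394 CPM in Selp high-derived replicates 1 to 3 and 521, 3224 and 245 CPM in Selp low-derived replicates 1 to 3. It had 50.8, 993, 1025 and 4493 CPM in Selp high replicates 1 to 4 and 361, 680, 757 and 3161 CPM in Selp low replicates 1 to 4. Every pair of groups overlapped, with the 3 libraries named above at the top. S100a9 (ENSMUSG00000056071.12) followed it library by library, at 73.2, 347 and 374 CPM in Selp high-derived and 543, 2970 and 273 CPM in Selp low-derived cells. In Selp high cells S100a9 was at 55.7, 1007, 950 and 4282 CPM, and in Selp low cells at 454, 717, 822 and 2854 CPM. Per kilobase of exon, S100a8 was at 0.598 to 0.833 times the level of S100a9, a 1.39-fold range over libraries in which each of the pair varied at least 76.9-fold.

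Ngp, Camp, Ltf and Lcn2 encode proteins of specific granules. Ngp (ENSMUSG00000032484.8, neutrophilic granule protein) had 89.8, 627 and 568 CPM in Selp high-derived and 644, 2754 and 376 CPM in Selp low-derived cells. It had 81.6, 1900, 1227 and 4909 CPM in Selp high libraries and 514, 1171, 1215 and 3830 CPM in Selp low cells. Replicate 1 was lowest and replicate 4 highest in both pre-transplant groups, as for S100a8, and all groups overlapped. Camp (ENSMUSG00000038357.10), the precursor of the antimicrobial peptide CRAMP, was at 29.2, 126 and 115 CPM in Selp high-derived and 167, 735 and 62.4 CPM in Selp low-derived cells. It was at 19.7, 458, 227 and 1196 CPM in Selp high libraries and 191, 238, 215 and 853 CPM in Selp low cells. In Selp low cells Camp thus set replicate 4 apart while the other 3 lay close together. Ltf (ENSMUSG00000032496.7), the iron-binding lactoferrin, had 27.2, 319 and 248 CPM in Selp high-derived and 365, 1218 and 198 CPM in Selp low-derived cells. It had 46.2, 902, 611 and 2240 CPM in Selp high libraries and 270, 469, 659 and 1916 CPM in Selp low cells. For Ltf the lowest library was Selp high-derived replicate 1, with Selp high replicate 1 next to it. Lcn2 (ENSMUSG00000026822.14), a lipocalin that binds bacterial siderophores, had 11.8, 117 and 94.2 CPM in Selp high-derived and 159, 683 and 98.4 CPM in Selp low-derived cells, and 13.3, 332, 308 and 1280 CPM in Selp high libraries and 124, 225, 316 and 817 CPM in Selp low cells. Its groups overlapped in both stages, and its range over the 14 libraries was 108-fold.

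The other 4 members belong to late or secreted products and to the surface. Retnlg (ENSMUSG00000022651.6), a resistin-like secreted protein, had 14.7, 53.1 and 78.0 CPM in Selp high-derived and 98.6, 306 and 63.0 CPM in Selp low-derived cells. It had 3.82, 116, 187 and 612 CPM in Selp high libraries and 57.5, 94.7, 149 and 439 CPM in Selp low cells, the widest range of the 10 at 160-fold. Both stages again showed overlapping groups. Mmp8 (ENSMUSG00000005800.3), neutrophil collagenase, had 13.3, 40.1 and 44.5 CPM in Selp high-derived and 63.5, 159 and 45.1 CPM in Selp low-derived cells, and 3.02, 72.2, 149 and 318 CPM in Selp high libraries and 26.9, 62.1, 114 and 278 CPM in Selp low cells. Mmp8 was the 1 member of 10 whose post-transplant groups did not overlap, with 44.5 CPM as the highest Selp high-derived and 45.1 CPM as the lowest Selp low-derived value. Of all tested genes, 5.55% were likewise lower in Selp high-derived cells with no overlap and 4.79% higher, so 1 of 10 is near the background. Chil3 (ENSMUSG00000040809.10), a chitinase-like lectin also called Ym1, had 22.5, 142 and 135 CPM in Selp high-derived and 156, 484 and 103 CPM in Selp low-derived cells. It had 13.4, 496, 422 and 1222 CPM in Selp high libraries and 106, 223, 471 and 868 CPM in Selp low cells. Of its windows of 50 bases, 26.9% also occur in Chil4 or Gm6522, so its counts are uncertain. Chil4 itself had 0 to 6 reads per library. Ly6g (ENSMUSG00000022582.4), the surface antigen bound by Gr-1 antibody, was the least abundant, with 11, 110 and 166 reads in Selp high-derived, 152, 814 and 88 reads in Selp low-derived, 24, 339, 358 and 1387 reads in Selp high libraries and 207, 348, 296 and 1043 reads in Selp low cells. In CPM it ran from 0.391 in Selp high-derived replicate 1 to 54.9 in Selp high replicate 4, and was detected in all 14 libraries of cells sorted as free of Gr-1.

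The mix of the 10 transcripts changed far less than their sum. Per kilobase of exon, S100a9 made up 29.9% to 37.7% of the 10, S100a8 21.97% to 30.8%, Ngp 14.9% to 24.1% and Camp 5.30% to 10.6%, while Ly6g stayed between 0.100% and 0.316%. Other ratios varied more than that of the calprotectin pair. Retnlg ran from 0.0881 to 0.301 times the level of S100a8, and Mmp8 from 0.0141 to 0.0527 times. Selp high replicate 1 stood at one end of the Retnlg ratios, with a ratio of Ngp to Retnlg of 10.4 against 2.90 to 7.96 in the other libraries, on 100 reads of Retnlg.

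**Figure D2:**
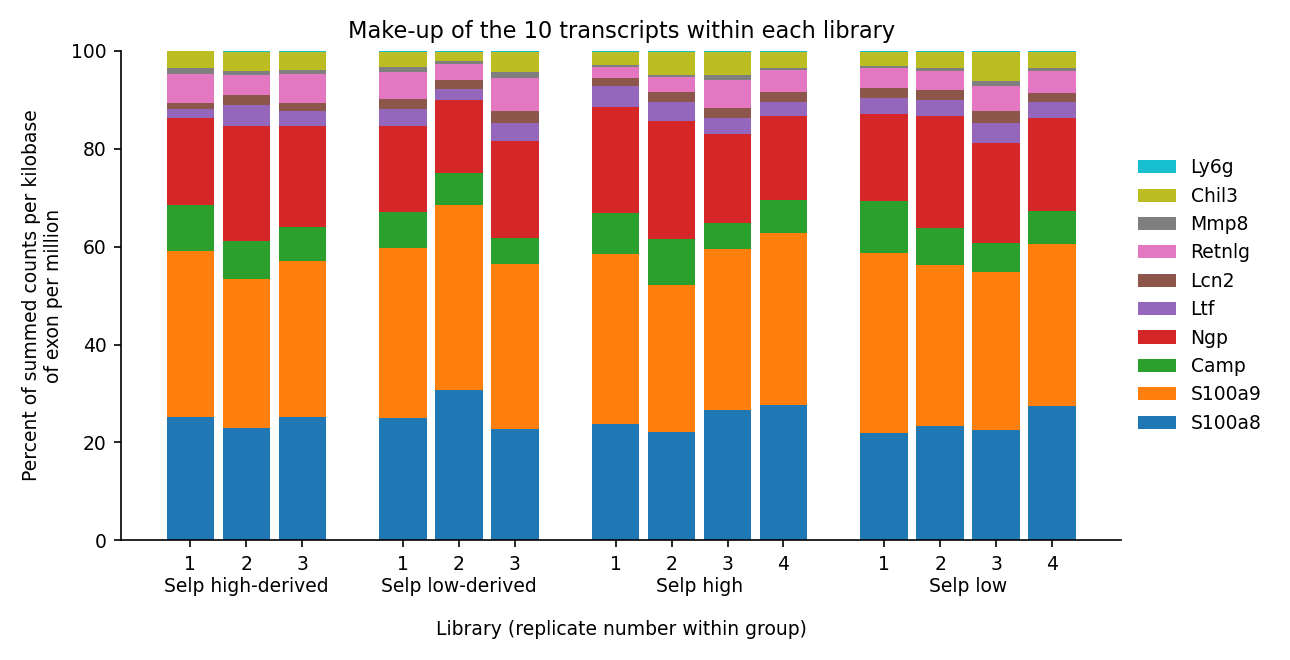
Make-up of the 10 transcripts in each library, as percent of their summed level per kilobase of exon (stacked bars), by group. S100a8, S100a9 and Ngp fill most of every bar, and Ly6g, at no more than 0.316%, is too thin to see.

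The members tracked each other, and other late neutrophil genes to differing degrees. As a description over 14 libraries, which differ in depth and share 4 mice before transplantation, the deviation of each member from its group mean in log2 CPM was compared with the mean of the other 9. Pearson's r was 0.958 to 0.996, and 0.945 to 0.997 over the 11 libraries left without the 3 highest. Among 11347 protein-coding genes averaging at least 1 in log2 CPM, 57 reached r of at least 0.9 with the mean of the 10, and the median gene had r of -0.02. The 15 most alike were Wfdc21 (r = 0.992), Chil1 (0.991), Cd177 (0.990), Mcemp1, C5ar1, Trem3, Ifitm6, Itgb2l, Aldh3b1, Hsd11b1, Hp, Slc2a6, Mmp9, Ncf1 and C3 (0.957). Cd177, a surface glycoprotein of neutrophils, ran from 9.14 to 375 CPM, and Mmp9, the gelatinase of gelatinase granules, from 5.35 to 386 CPM. C5ar1, the receptor of complement C5a, ran from 0.803 to 72.0 CPM, and Ncf1, a subunit of the phagocyte NADPH oxidase, from 4.63 to 132 CPM.

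The 8 genes of primary granules and promyelocytes had r of 0.229 to 0.733 with the members, against 0.695 to 0.991 for the 16 other genes of specific and gelatinase granules, and the 2 ranges overlapped. For the 22 tested genes of mature and blood neutrophils r ran from 0.561 (Csf3r) to 0.992 (Wfdc21), which also overlapped the primary granule range. Clec4e of that list had r of 0.569, and 0.18 over the 11 libraries without the 3 highest. Mpo, myeloperoxidase, had 58.0, 36.5 and 97.1 CPM in Selp high-derived and 180, 213 and 206 CPM in Selp low-derived cells, and 81.1, 7.81, 105 and 223 CPM in Selp high libraries and 62.5, 151, 61.3 and 479 CPM in Selp low cells. Selp high replicate 2 had the lowest Mpo of all 14 libraries, while the 10 members together were at 6288 CPM there. In Selp high replicate 1, where the members were lowest at 289 CPM together, Mpo was at 81.1 CPM. Elane, neutrophil elastase, gave r of 0.466 with the members over 14 libraries and 0.04 over the 11 without the 3 highest, and Mpo 0.229 and -0.32. Over those 11 libraries Ms4a3 kept 0.551, Prss57 0.529 and Nkg7 0.451, the 3 highest of the 8. Prtn3, proteinase 3, was nearly flat at 396 to 443 CPM in Selp high libraries and 418 to 469 CPM in Selp low cells, also in both libraries numbered 4. Among transcription factors, Cebpe ran from 0.344 to 10.5 CPM with r of 0.955. Spi1, the gene of PU.1, had r of 0.90, Klf5 0.775, Irf8 0.725, Cebpa 0.694 and Cebpd 0.457. Cebpb, the C/EBP beta gene, had r of 0.02, and Gfi1, a repressor needed for neutrophil development, -0.59.

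Other lineages were compared by how many of their tested markers peaked in Selp low-derived replicate 2 or in either pre-transplant library numbered 4, which 28.3% of all tested genes did. All 16 of the other specific and gelatinase granule genes did, 20 of 22 genes of mature and blood neutrophils, 6 of 8 primary granule genes and 5 of 8 transcription factors. So did 11 of 12 monocyte and macrophage markers, 10 of 11 erythroid markers, 10 of 11 mast cell, basophil and eosinophil markers, 8 of 10 B and plasma cell markers and 8 of 10 T and NK cell markers. Nkg7 is in both the primary granule list and the T and NK cell list. The counts were 3 of 7 for platelet markers, 1 of 7 for endothelial and stromal markers and 2 of 12 for LT-HSC markers. The summed B cell markers ran from 92.9 to 461 CPM in Selp high-derived, 350 to 1501 CPM in Selp low-derived, 189 to 2693 CPM in Selp high libraries and 384 to 6252 CPM in Selp low cells. The summed mast cell, basophil and eosinophil markers ran from 9.12 to 148 CPM, 24.1 to 628 CPM, 2.60 to 204 CPM and 38.5 to 452 CPM in the same order of groups, and the monocyte markers from 124 to 194 CPM, 217 to 344 CPM, 37.2 to 400.0 CPM and 86.3 to 687 CPM. The summed erythroid markers, of which Car2, a carbonic anhydrase, alone had 2009 to 2862 CPM, ran from 2808 to 3537 CPM, 2827 to 4527 CPM, 2442 to 4525 CPM and 2385 to 5154 CPM in that order, and the T and NK cell markers from 87.9 to 100.3 CPM, 90.3 to 126 CPM, 159 to 315 CPM and 140 to 259 CPM. No marker list had a gene at 0 reads in all 14 libraries, while 10 of 12 T and NK cell, 8 of 12 mast cell, basophil and eosinophil, 5 of 12 B and plasma cell and 0 of 12 monocyte markers were at 0 in at least 1 library, and the part of other cell types in the members' values was not tested.

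The other lineages did not all follow the members beyond those 3 libraries. Hbb-bs, an adult beta globin, had 930 CPM in Selp low-derived replicate 2, 1002 CPM in Selp high replicate 4 and 1285 CPM in Selp low replicate 4, against 54.5 to 555 CPM in the other 11. Over those 11 its r with the members was 0.002, against 0.554 over all 14. Igkc, the immunoglobulin kappa constant gene, reached 1700 CPM in Selp high replicate 4 and 3592 CPM in Selp low replicate 4 but was at 119 CPM in Selp low-derived replicate 2. Both LT-HSC markers given here were present in every library: Kit, the receptor in the sort gate, lay between 947 and 1755 CPM and Esam, an adhesion molecule, between 274 and 477 CPM. Of the antigens gated out, Itgam, the gene of Mac-1, ran from 0.229 to 14.9 CPM with r of 0.907, and Cd48 from 1.03 to 20.97 CPM with r of 0.771.

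**Figure D3:**
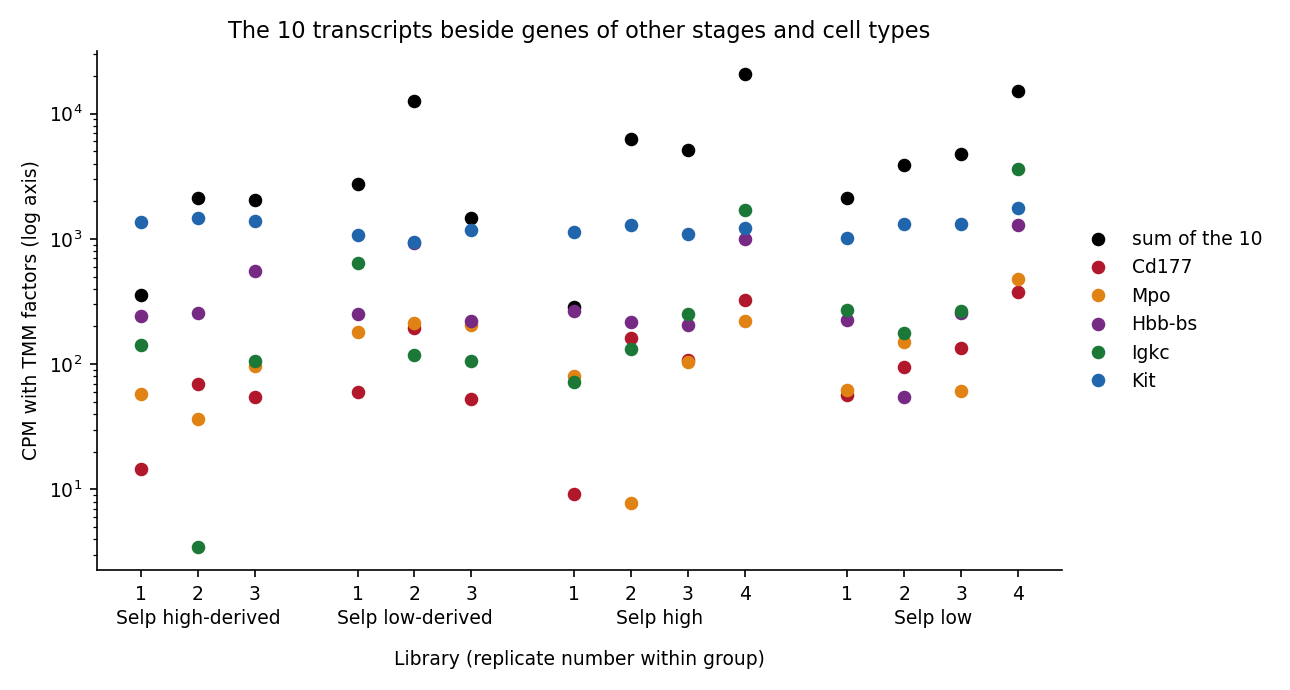
Summed level of the 10 transcripts and levels of Cd177, Mpo, Hbb-bs, Igkc and Kit (points, CPM with TMM factors, log axis) in each library by group. Cd177 moves with the sum in all groups, Hbb-bs is high in Selp low-derived replicate 2 and both libraries numbered 4, and Kit lies between 947 and 1755 CPM.

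The comparison before transplantation set Selp high against Selp low LT-HSCs of the same old mice. Sample titles give replicate numbers only, and pre-transplant libraries with the same number were read as the same mouse. In mouse 1 all 10 members were lower in Selp high cells, at 0.0665 to 0.171 times the Selp low level, and in mice 2 and 4 all 10 were higher, at 1.16 to 2.22 times and 1.14 to 1.57 times. In mouse 3, 7 were higher and 3 (Ltf, Lcn2 and Chil3) lower, at 0.896 to 1.35 times. The share of reads in the members was 0.140, 1.65, 1.10 and 1.36 times the Selp low share in mice 1 to 4. A gene was called at an adjusted p under 0.05 (Benjamini-Hochberg over all tested genes) in edgeR's quasi-likelihood test of the counts. Fold changes carry a standard error (SE) derived as the absolute log2 fold change divided by the square root of that test's F statistic. By edgeR 0 of the 10 members were called, as were 0% of all tested genes, and 0 members had an unadjusted p under 0.05 (863 of all tested genes did). DESeq2 and limma voom also called 0 members. The 2 groups overlapped for all 10, while 1.52% of tested genes were higher and 1.56% lower in Selp high cells with no overlap. S100a8 differed by 0.40 ± 1.04 on the log2 scale (SE), Ngp by 0.27 ± 0.94, Ltf by 0.20 ± 0.93 and Chil3 by 0.37 ± 0.93, and the 10 ran from 0.17 to 0.40 (median 0.34, against -0.02 over all tested genes), with edgeR adjusted p of 0.986 to 0.996. That fit took libraries of the same mouse as independent, so its SE and p leave out the pairing by mouse.

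The sign of that difference was not stable across fits and libraries. S100a8 averaged 1640 ± 1955 CPM in Selp high libraries and 1240 ± 1292 CPM in Selp low cells (mean ± SD, n = 4 each), but its geometric mean was 694 CPM in Selp high libraries and 876 CPM in Selp low cells. All 10 members were positive by edgeR and DESeq2 and all 10 negative by limma voom, which fits means of log values (-0.69 to -0.33). With the mouse as a block in edgeR, all 10 were negative as well (-0.37 to -0.17, adjusted p of 0.799 to 0.896). S100a8 was then at -0.19 ± 0.53 (SE) and Ngp at -0.29 ± 0.49. The block fit called 0 of the 10 and 2 of 15426 genes tested, and 2243 genes had an unadjusted p under 0.05. Without Selp high replicate 4 the 10 members ran from -0.88 to -0.43, without Selp low replicate 4 from 1.00 to 1.45 and without Selp high replicate 1 from 0.58 to 0.81. Without both libraries of mouse 4 they ran from -0.10 to 0.22, with 8 above and 2 (Lcn2 and Ly6g) below 0.

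**Figure D4:**
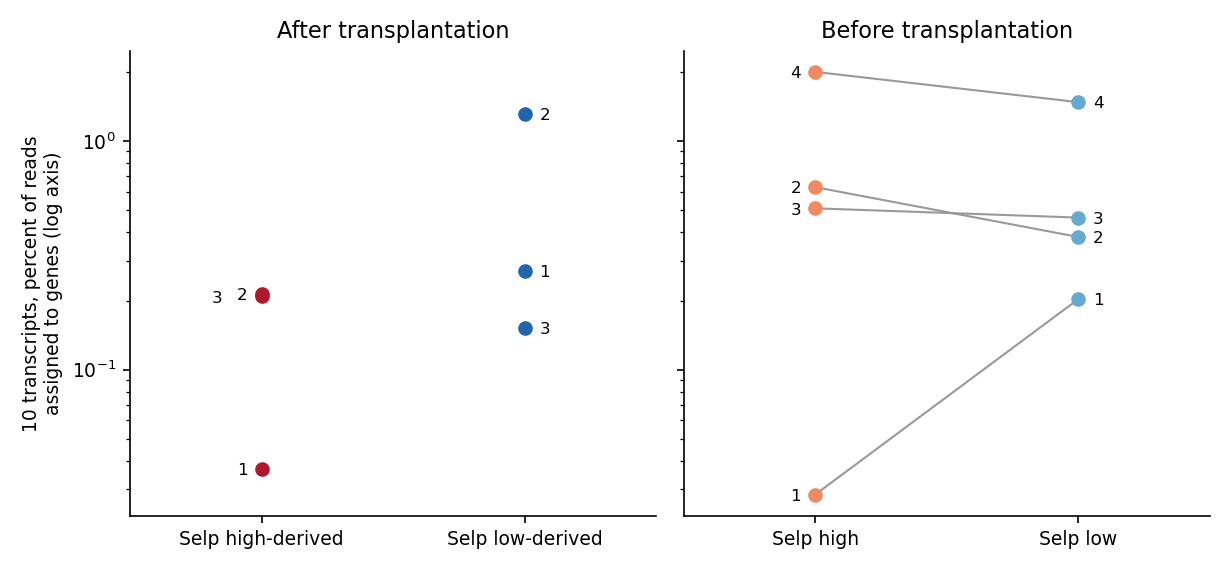
Share of assigned reads in the 10 transcripts (percent, log axis) per library, with the replicate number beside each point. Lines before transplantation join libraries of the same replicate number, read as the same mouse. The share is higher in Selp high cells in mice 2, 3 and 4 and 0.140 times the Selp low share in mouse 1.

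After transplantation, Selp high-derived cells had lower values than Selp low-derived cells for all 10 members, with a wide error. S100a8 averaged 271 ± 174 CPM in Selp high-derived and 1330 ± 1646 CPM in Selp low-derived cells (mean ± SD, n = 3 each), a difference of -2.30 ± 1.25 on the log2 scale (SE). Ngp averaged 429 ± 295 CPM in Selp high-derived and 1258 ± 1302 CPM in Selp low-derived cells (mean ± SD, n = 3 each), a difference of -1.55 ± 1.11. The 10 ran from -2.30 to -1.31 (median -1.76, against 0.01 over all tested genes). By edgeR 0 of the 10 were called, as were 0% of all tested genes (adjusted p of 0.979 for all 10), 0 had an unadjusted p under 0.05 (765 of all tested genes did), and DESeq2 and limma voom called 0. Selp low-derived replicate 2 carried much of the difference: without it the 10 ran from -0.79 to -0.25, with a median of -0.50. Without Selp high-derived replicate 1, the lowest of that stage, they ran from -1.87 to -0.86. By limma voom with sample quality weights they ran from -0.97 to -0.31, with a median of -0.69.

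The difference between the differences after and before transplantation ran from -2.70 (S100a8, SE 1.61) to -1.62 (Mmp8, SE 1.39) for the 10 members. By edgeR 0 of 10 were called, as were 0% of all tested genes, with adjusted p of 0.879 to 0.884; 0 had an unadjusted p under 0.05 (874 of all tested genes did), and DESeq2 and limma voom called 0. This fit too took pre-transplant libraries of the same mouse as independent. With replicate blocks in edgeR the 10 ran from -1.81 to -1.07 (adjusted p of 0.609 to 0.748), although post-transplant numbers do not pair libraries. Without the 3 highest libraries the 10 ran from -0.88 to -0.31. Without Selp low-derived replicate 2 alone they ran from -1.17 to -0.52, and without Selp high replicate 4 alone from -1.45 to -0.77. By limma voom with sample quality weights they ran from -0.51 to 0.08, with a median of -0.37 against -2.09 by edgeR.

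Post-transplant libraries had lower values than pre-transplant libraries for all 10 members, with log2 differences of -1.59 to -1.24 and no call. Chil3 had the most negative value, at -1.59 ± 0.74 (SE), and Retnlg one of the least negative, at -1.24 ± 0.77. By edgeR 0 of the 10 were called at adjusted p of 0.128 to 0.281, against 27.4% of all tested genes (12.9% higher and 14.6% lower). That fit took the 8 pre-transplant libraries as independent although they came from 4 mice, so its SE and p can be too small. Chil3 was the 1 member with an unadjusted p under 0.05 (0.0498), DESeq2 and limma voom called 0, and without Selp high replicate 1 edgeR called Chil3 (adjusted p = 0.0342, -1.79). For each member the 2 stages overlapped, while 4.28% of tested genes were higher and 5.47% lower after transplantation with no overlap. Without both pre-transplant libraries numbered 4 the 10 ran from -0.87 to -0.10 (median -0.40, against -1.32 with all 14), and without Selp low-derived replicate 2 from -2.15 to -1.60.

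**Figure D5:**
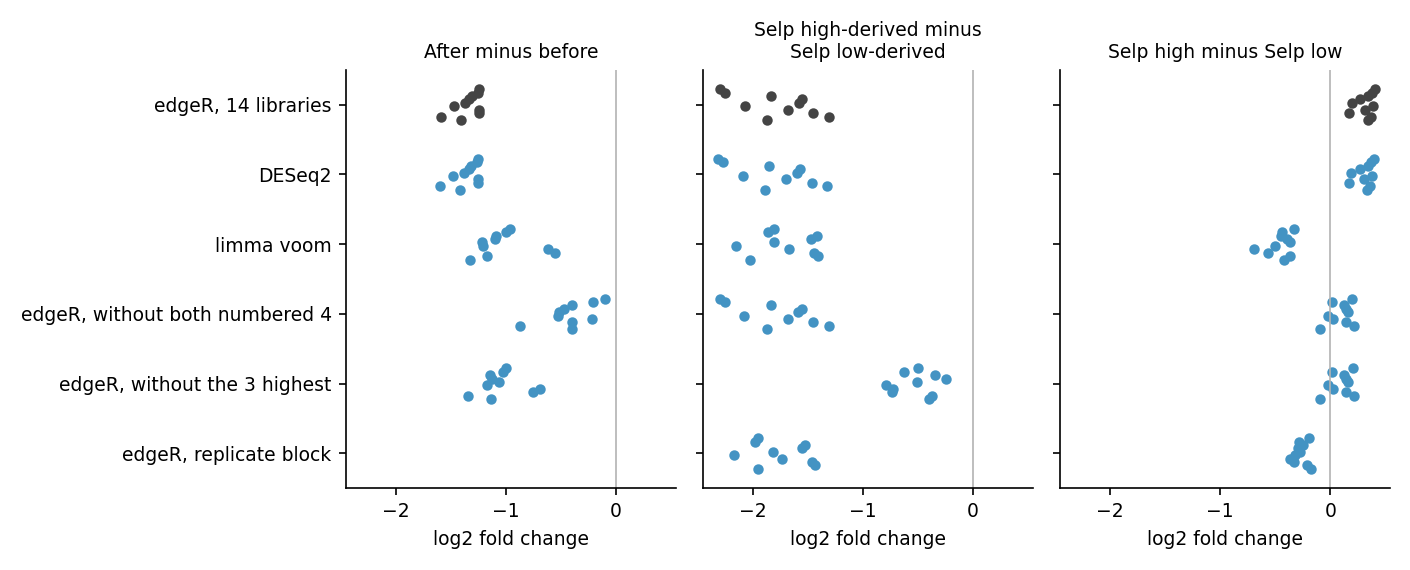
Log2 fold change of each of the 10 transcripts (points) in 3 comparisons under 6 ways of fitting, with black points for edgeR over 14 libraries. Selp high minus Selp low values lie on both sides of 0 depending on the fit, and Selp high-derived minus Selp low-derived values come closest to 0 without the 3 highest libraries; no replicate block was fitted for after minus before.

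Related neutrophil lists were compared between post-transplant and pre-transplant libraries, and their counts of calls are given beside the shares of all tested genes. The same edgeR fit was used, so pre-transplant libraries of the same mouse were again taken as independent. Among the 16 other specific and gelatinase granule genes, edgeR called 0 higher and 2 lower (Olfm4 and Lrg1), against 12.9% and 14.6% of all tested genes. Olfm4, olfactomedin 4 of specific granules, was at 17.4 CPM in Selp high replicate 4 and 17.7 CPM in Selp low replicate 4 and at no more than 2.39 CPM elsewhere. Among 22 genes of mature and blood neutrophils 1 was called higher (Clec4e, a C-type lectin receptor, 1.17 ± 0.22 SE) and 3 lower (Il1r2, Il1b and Csf3r). Csf3r, the G-CSF receptor, fell by 0.52 on the log2 scale (SE 0.14, edgeR adjusted p = 0.0117). Of 8 primary granule genes, Prtn3 fell by 1.29 (SE 0.10) and Nkg7 rose by 1.76 (SE 0.31). Nkg7 is also in the T and NK cell list, so its rise is not particular to primary granule genes. Of 8 transcription factors, Cebpb fell by 2.39 (SE 0.19) and Cebpd by 1.84 (SE 0.19), both called, while Cebpe differed by -1.27 ± 0.61 and was not called. Olfm4, Lrg1, Clec4e, Il1r2, Il1b and Cebpd are named because they were called, after their values were seen. Il1b and Il1r2 were called the same way in 6 and 11 of 21 alternative fits, Olfm4 in 17 and the other 7 genes in all 21. In the other 3 comparisons edgeR called 0 genes of any of these lists.

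The members' spread was large beside that of other genes. Their biological coefficient of variation, the spread between libraries of a group beyond counting error, was 0.836 to 0.934, above that of 93.2% to 95.1% of tested genes. Over all genes the common coefficient was 0.322 with 14 libraries, 0.276 without both libraries numbered 4 and 0.259 without the 3 highest. Calls over all genes numbered 0, 1 and 5234 without both libraries numbered 4 (before transplantation, after it, and after against before), 0, 0 and 5393 without the 3 highest, and 0, 0 and 4631 with all 14. With the mean of the 10 members as a covariate they numbered 0, 0 and 4641.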

How the data were processed

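RNA was measured in 14 libraries made from polyA RNA by template-switching cDNA synthesis and tagmentation, per the labels' protocols. The deposited values are whole-number counts of reads per gene, made by the authors. The submitters' processing notes name STAR 2.7.0d and GRCm38, and the sources used here do not give the annotation release. All 55450 identifiers matched GENCODE M21, which gave symbols, positions and exon lengths. The column of counts made without regard to strand was used (sums by strand stood at 0.989 to 0.999 to each other), so overlapping genes on opposite strands cannot be told apart. Reads that were unmapped (3.35 to 5.06%), multimapping (9.93 to 13.4%), outside genes (3.37 to 5.13%) or ambiguous (4.20 to 4.79%) stayed out of library sizes. Libraries held 22374794 to 38216775 assigned reads, and intervals on shares are exact Clopper-Pearson intervals that cover counting error only.

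The test was the quasi-likelihood test of edgeR 4.0.16 (R 4.3.3) on 4 group means over all 14 libraries, TMM factors of 0.963 to 1.042, its expression filter at a minimum count of 10, and Benjamini-Hochberg adjustment over 16878 genes. A gene was called at an adjusted p under 0.05. In every comparison a positive value is higher in the first named group. CPM carry TMM factors, log2 CPM a prior count of 2. Alternatives were DESeq2 1.42.0, limma 3.58.1 voom with and without sample quality weights, RLE factors, no filter, each library left out in turn, both pre-transplant libraries numbered 4 or the 3 libraries highest in the members left out, the mean of the members as a covariate, and a replicate block. The fit was also run on simulated counts, drawn independently for each library and gene, and not for the difference between the Selp differences. That simulation had neither shared mice nor genes moving together, so it says nothing on the error of the members. Named genes are the 10 members, the 3 most abundant genes of each list and the 15 genes most like the members.

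The members, gene lists and tests were chosen with earlier results of these data known. Deviations from the group means correlated across genes at r of 0.29 to 0.53 for same-numbered pre-transplant libraries, against -0.40 to 0.05 for differently numbered ones. These numbers were read as the 4 mice, which the sample titles do not state. Deviations within a group sum to 0, so the lower r of differently numbered libraries follows in part from the higher r of same-numbered ones. Whether shared handling gave the same match was not tested. The post-transplant numbers, at r of -0.05 to 0.02, do not pair those libraries, and a fit with them as a block was run only as an alternative. P-values measure the spread between these libraries only. Outside the replicate block, those of each comparison that held pre-transplant libraries, including post-transplant against pre-transplant, took libraries of the same mouse as independent.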

Additional observations from a re-analysis of the deposited data

Results flagged for a closer look

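Within the 4 Selp low libraries, replicate 4 lay far from the other 3 for 4 of the members, with a gap to the next library that passed Dixon's limit for 4 values. The values there were 3161 CPM for S100a8 (gap 0.859 of the range), 2854 CPM for S100a9 (0.847), 852.9 CPM for Camp (0.929) and 36.1 CPM for Ly6g (0.848). The members' share of reads and the other 6 members in that group, and every member in the Selp high group, did not pass this limit. The 22 sets of 4 values checked are not independent, since the members move together. Chance flags about 1 in 20 such sets only where values are normally distributed. The limit was applied to CPM and shares, not to log values, so that rate need not hold here, and log values were not checked.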

How the results depend on the processing

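By edgeR no comparison called a member over all 14 libraries, and no alternative did, except that Chil3 was called lower after transplantation without Selp high replicate 1 (0 to 1 members with 1 library left out). Post-transplant against pre-transplant values stayed negative for all 10 members in every alternative run, as did those of the 2 post-transplant groups. The Selp high against Selp low values before transplantation changed sign. In the order S100a8, S100a9, Camp, Ngp, Ltf, Lcn2, Retnlg, Mmp8, Chil3 and Ly6g they were -0.33, -0.43, -0.44, -0.40, -0.37, -0.50, -0.69, -0.57, -0.36 and -0.42 by limma voom. In the same order they were -0.21, -0.34, -0.39, -0.39, -0.34, -0.47, -0.51, -0.39, -0.38 and -0.32 by limma voom with sample quality weights. With the replicate block, whose number was read as the mouse, they were -0.19, -0.28, -0.25, -0.29, -0.28, -0.32, -0.37, -0.33, -0.21 and -0.17. Without both libraries numbered 4, Lcn2 and Ly6g were at -0.0214 and -0.10, and without the 3 highest at -0.0212 and -0.10. With 1 library left out the values ran as follows: S100a8 -0.85 to 1.45, S100a9 -0.85 to 1.24, Camp -0.67 to 1.15, Ngp -0.65 to 1.07, Ltf -0.67 to 1.03, Lcn2 -0.76 to 1.13, Retnlg -0.86 to 1.19, Mmp8 -0.69 to 1.00, Chil3 -0.43 to 1.01, Ly6g -0.88 to 1.13. The cause was not tested. The difference between the Selp differences after and before transplantation turned positive for Camp (0.0768) and Ngp (0.0174) by limma voom with sample quality weights.

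Calls over all genes were 0 before transplantation by edgeR, 11 by DESeq2, 1 with no filter, 2 with the replicate block and 0 to 2 with 1 library left out. After transplantation they were 0 by edgeR, 25 by DESeq2, 1 with quality weights, 1 without both libraries numbered 4 and 2 with the replicate block. For the difference between the Selp differences after and before transplantation they were 0 by edgeR and 11 by DESeq2. The replicate block changed no call of a member, although 9 had an unadjusted p under 0.05 with it after transplantation, where the numbers do not pair the libraries. After against before, 4631 genes were called, and 3688 to 5022 with 1 library left out. The members' summed share ranged 70.3-fold over the Selp high libraries alone, and its counting intervals were narrow beside that.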
